A study of Mus musculus with 38 samples.

Results

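The 9 genes described here are Adgrg5, Eomes, Cd44, Cxcr3, Runx2, Crtam, Plaur, Myo10 and Ahnak, out of 24028 genes in the count table. They were chosen by measured values from these libraries, for a high level in CD4 T cells that carry a miR-17~92 transgene or for a response altered by it. Their levels in cells with the transgene are therefore given as a description with no test. Each symbol matched 1 protein-coding gene of the table, and all 9 passed the filter on low counts that left 13650 genes to test.

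RNA was sequenced from mouse CD4 T cells in 38 libraries, with 4 libraries in each of 8 groups and 3 in each of the other two. Naive CD4 T cells came from the lymph nodes and spleen of 1 mouse per library, pooled, and were sequenced either at once or after 24 h on plates coated with anti-CD3 (0.5 µg/ml) and anti-CD28 (0.2 µg/ml) with IL-2 (50 U/ml). The 5 genotypes were wild-type, CD28-/-, T1792del (CD4cre with miR-17~92 lox/lox, so that the cluster is deleted in T cells), T1792tg (CD4cre with the Rosa26 loxSTOPlox CAG-miR-17~92 transgene) and a rescue strain that joins CD28-/-, CD4cre and the same transgene. CD4cre drives recombination from the Cd4 promoter, and wild-type and CD28-/- mice carry no Cre, so Cre and the edited locus cannot be told apart. CD28-/- cells were kept on the same plates as the others, although they lack the receptor that anti-CD28 engages. No cells cultured without stimulation were among the libraries, so the 24 h response holds both culture and stimulation.

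miR-17~92 is a microRNA cluster that promotes proliferation and survival of activated lymphocytes and is induced through CD28, the costimulatory receptor of T cells. Its mature microRNAs load into Argonaute and pair through a short seed with messenger RNAs, which lowers the amount or translation of those messages. Several of the 9 genes belong to effector and memory T cell states: Eomes is a T-box transcription factor, CXCR3 a chemokine receptor of type 1 effector cells, and CD44 a hyaluronan receptor used to mark antigen-experienced T cells.

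The 6 mature microRNAs of the transgene are shown because their seeds decide which messages can pair with them. Bases 2 to 8, the seed, are in capitals, 5′ to 3′, from RefSeq (GRCm38.p6).
miR-17-5p: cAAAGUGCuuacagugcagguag
miR-20a-5p: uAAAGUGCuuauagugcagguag
miR-18a-5p: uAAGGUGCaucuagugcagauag
miR-19a-3p: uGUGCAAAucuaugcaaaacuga
miR-19b-3p: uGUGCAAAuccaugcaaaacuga
miR-92a-3p: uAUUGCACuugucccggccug
miR-17-5p and miR-20a-5p share a seed, miR-19a-3p and miR-19b-3p share another, and miR-18a-5p and miR-92a-3p have their own. A DNA match to 1 of these 4 seeds was present in the longest annotated 3′ UTR of 4 of the 9 genes, each with 1 match, against 32.7% of the 12503 tested genes with a 3′ UTR. The matches are printed with their neighbours, the seed match in capitals.
Ahnak, miR-17-5p and miR-20a-5p: ggaaatgtctgGCACTTTaatggcaaatt
Runx2, miR-19a-3p and miR-19b-3p: taaactcttcaTTTGCACtgggtcacacg
Eomes, miR-92a-3p: tatcctgttttGTGCAATtctctgagaga
Myo10, miR-92a-3p: ggaaagaggatGTGCAATgttgtaaacag
Adgrg5, Cd44, Cxcr3, Crtam and Plaur had no such letters in that stretch, which says nothing of sites in other isoforms or of other kinds.

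Library totals ran from 19427291 to 28020721 counts. Levels are given as CPM, gene counts divided by the scaled library total and set to a common total, and the sign of each log2 fold change is the first named group minus the second. The row of the Mir17 precursor averaged 6.55 ± 0.900 CPM (SD, n = 4) in naive T1792tg cells, 6.88 ± 1.84 (n = 3) in naive rescue cells and 0.334 ± 0.0969 (n = 4) in naive wild-type cells. At 24 h this row was low in all groups, with means of 0.624 CPM in T1792tg, 0.571 in rescue and 0.131 in wild-type cells. In T1792del cells it averaged 0.0641 CPM in naive and 0 in 24 h cells. Other rows of the edited loci were altered in T1792del cells: Gt(ROSA)26Sor averaged 13.6 ± 1.40 CPM in naive and 10.8 ± 0.282 in 24 h T1792del cells, against means of 0.0673 to 0.676 in the other groups, and Mir17hg averaged 172 ± 11.8 CPM in 24 h T1792del against 20.7 ± 2.44 in 24 h wild-type cells. The T1792del genotype as given names no change at Rosa26. Cd28 counts do not check the CD28-/- label, since the row held 737 ± 135 CPM in naive CD28-/- cells and 825 ± 86.8 in naive wild-type cells, and the deleted exons were not counted apart. Cd4 and Cd3e were high in all groups, with means of 445 to 1115 CPM for Cd4. Markers of other cells were present. Summed over 16 NK and CD8 T cell markers, naive libraries held 107 to 203 CPM and 24 h libraries 18.5 to 37.4 CPM. Over 12 B cell markers the naive sums were 164 to 682 CPM, with 400.0 to 654 in T1792tg and 222 to 452 in wild-type. Over 15 myeloid markers the naive sums were 136 to 417 CPM. In bulk samples, fewer cells of a type and less RNA per cell cannot be told apart.

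The label of the set as genes raised by miR-17~92 described some genes and not others. The same contrasts chose the genes, so a gene that matches the label is no support for it. Adgrg5, Eomes, Cxcr3 and Runx2 were higher in T1792tg than in wild-type cells in both states, with no overlap between the libraries. Cd44, Plaur, Crtam and Ahnak differed in that way after 24 h only, while naive libraries overlapped. Myo10 was lower with the transgene in naive cells, 16.6 ± 3.55 CPM in T1792tg against 50.6 ± 4.83 in wild-type. Crtam and Ahnak, though higher in T1792tg than in wild-type at 24 h, reached their highest 24 h levels in cells without CD28.

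Counted over the set in naive cells, 4 of 9 genes were higher and 1 lower in T1792tg than in wild-type without overlap of libraries, where the test called 10.5% of all tested genes higher and 12.6% lower. After 24 h, 8 of 9 were higher and 0 lower, beside 6.1% of all tested genes called higher and 6.45% called lower. For rescue against CD28-/-, 3 genes were higher and 1 lower without overlap in naive cells, beside 7.84% and 8.92% of tested genes called. The corresponding numbers after 24 h were 6 higher and 1 lower, beside 9.52% and 8.86%. Nothing is read from these counts, because the same contrasts chose the genes. Non-overlap of libraries and the test are also different measures, and the share of all genes without overlap was not computed. The median log2 fold change of the 9 genes was 0.36 in naive and 1.54 in 24 h cells for T1792tg against wild-type, where the median over all tested genes was 0.01 and -0.01.

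**Figure D1:**
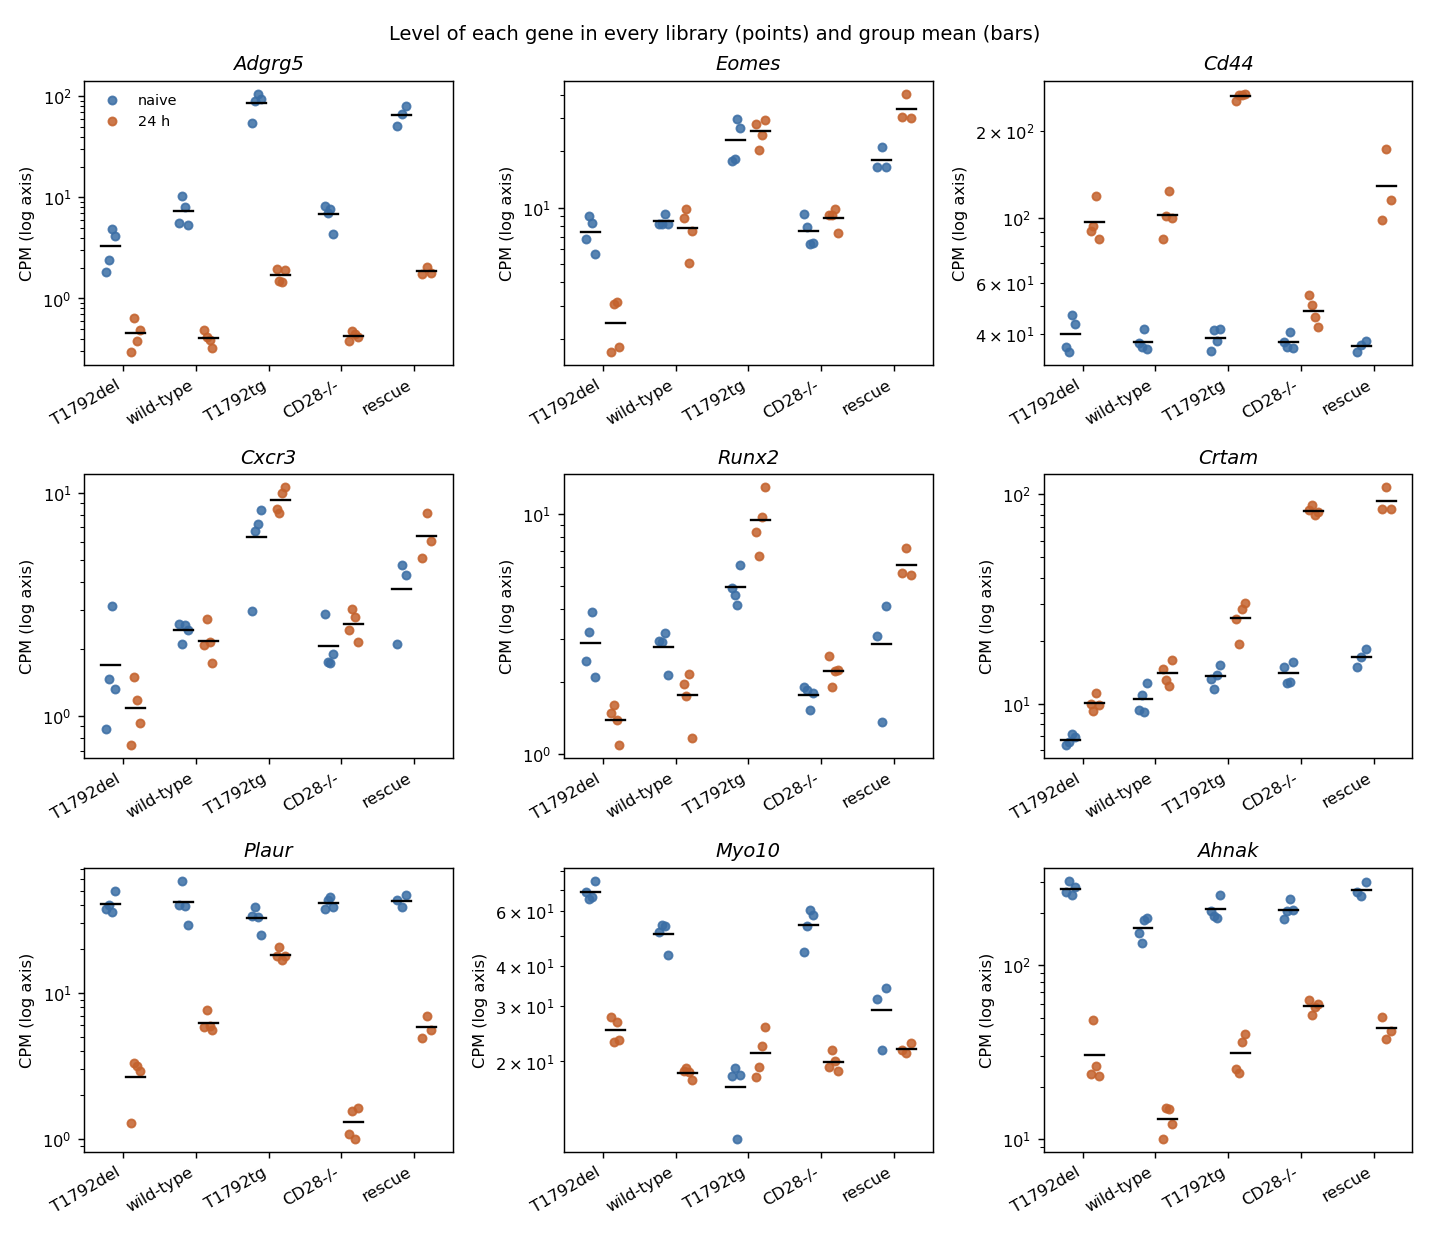
Level of each of the 9 genes in CPM (log axis) in the 5 genotypes; each point is 1 library, blue for naive and orange for 24 h cells, and bars are group means. Adgrg5 in naive T1792tg libraries lies between 54.9 and 105.5 CPM against 5.29 to 10.3 in wild-type, while Myo10 in naive cells lies lower in T1792tg than in each other genotype.

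Eomes (Entrez gene 13813, chromosome 9, 118478186 to 118486132, GRCm38.p6) encodes a T-box transcription factor that drives cytotoxic and memory genes in CD8 T cells and NK cells. In naive wild-type libraries its level was 8.23, 8.17, 9.29 and 8.14 CPM. The 4 naive T1792tg libraries held 17.7, 18.1, 29.7 and 26.6 CPM, and the 3 naive rescue libraries held 16.4, 21.0 and 16.5 CPM. Every library with the transgene thus lay above every library without it, whose highest naive value was 9.29 CPM. The naive log2 fold change was 1.45 ± 0.19 (SE) for T1792tg against wild-type and 1.26 ± 0.20 for rescue against CD28-/-.

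After 24 h the same separation was seen for Eomes, and its level was lower where the cluster was deleted. T1792tg libraries held 28.04, 20.4, 24.5 and 29.4 CPM and rescue libraries 30.3, 40.4 and 30.2, against 8.81, 9.79, 5.07 and 7.50 in wild-type. T1792del libraries held 1.70, 3.05, 3.14 and 1.80 CPM, below each wild-type library. Against wild-type this was a log2 fold change of -1.68 ± 0.22 (edgeR quasi-likelihood test, adjusted p = 1.005e-06). Naive T1792del cells, with 6.84, 9.06, 8.26 and 5.64 CPM, overlapped the wild-type libraries and were not called (log2 fold change -0.18 ± 0.20, adjusted p = 0.664). Eomes therefore fell with stimulation in T1792del cells, by 1.62 ± 0.22 on the log2 scale, and was not called in wild-type cells (-0.12 ± 0.20, adjusted p = 0.572). The test of that difference in response gave -1.50 ± 0.29 (adjusted p = 0.00167). CD28-/- cells did not pass the test against wild-type for Eomes, either naive (-0.17 ± 0.20) or at 24 h (0.18 ± 0.19).

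NK markers were measured beside Eomes, since NK cells also express it. Ncr1 averaged 2.60 ± 0.620 CPM in naive wild-type and 2.93 ± 1.31 in naive T1792tg libraries. At 24 h it was near 0, with group means of 0.0108 to 0.314 CPM, while Eomes differed as described. The summed NK and CD8 marker level at 24 h was 21.4 to 37.4 CPM in T1792tg, 19.8 to 27.7 in wild-type and 20.0 to 31.9 in T1792del libraries, which overlapped. In naive libraries the sum was 119 to 203 CPM in T1792tg and 113 to 119 in wild-type, and 3 of the 16 (Klrd1, Gzma, Klrc1) were called higher in T1792tg in both states. Regulatory T cell markers, 10 in all, summed to 408 to 543 CPM in naive T1792tg and 356 to 384 in naive wild-type libraries, with 4 called higher and 0 lower. At 24 h they summed to 1323 to 1387 CPM in T1792tg against 1075 to 1111 in wild-type (3 higher, 0 lower). In rescue the sum was 1371 to 1417 CPM against 1002 to 1052 in CD28-/- (4 higher, 2 lower), with no overlap in either pair. The median log2 fold change of these markers at 24 h was -0.08 for T1792tg and 0.10 for rescue. Foxp3, the factor that defines regulatory T cells, had lower 24 h means with the transgene. It averaged 6.48 ± 2.23 CPM in T1792tg against 9.42 ± 0.880 in wild-type, and 3.74 ± 1.40 in rescue against 5.97 ± 1.16 in CD28-/-. In naive cells it averaged 27.3 ± 4.38 CPM in T1792tg against 21.7 ± 1.64 in wild-type. The part of such cells in the differences of Eomes and the other members was not tested.

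Runx2 (Entrez gene 12393, chromosome 17, 44495987 to 44814797) encodes a Runt-domain factor best known for bone formation, and its relatives Runx1 and Runx3 shape T cell lineages. It was the lowest of the set per length of transcript, at 0.394 CPM per kilobase in naive wild-type cells. Naive levels were 2.94, 2.93, 3.18 and 2.14 CPM in wild-type and 4.89, 4.59, 4.17 and 6.10 in T1792tg, with no overlap and a log2 fold change of 0.82 ± 0.23. The naive rescue libraries, at 3.10, 1.36 and 4.11 CPM, spanned the CD28-/- values of 1.52 to 1.90.

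After 24 h the distance was wider for Runx2. T1792tg libraries held 8.41, 6.66, 9.63 and 12.8 CPM and rescue libraries 5.67, 7.17 and 5.55, against 1.958, 1.74, 2.15 and 1.16 in wild-type and 2.55, 1.90, 2.21 and 2.23 in CD28-/-. The log2 fold change was 2.42 ± 0.23 for T1792tg against wild-type and 1.46 ± 0.24 for rescue against CD28-/-. The Runx2 response had both signs among the genotypes. Runx2 fell in wild-type cells, by 0.68 ± 0.24 on the log2 scale (adjusted p = 0.0109), and in T1792del cells, by 1.07 ± 0.25 (adjusted p = 0.000200). Without the fourth 24 h wild-type library the wild-type fall was 0.53 on the log2 scale and no longer called (adjusted p = 0.0563). In T1792tg and rescue cells the 24 h mean exceeded the naive mean, with log2 responses of 0.93 ± 0.21 and 1.10 ± 0.26. The CD28-/- response was 1.01 ± 0.35 above that of wild-type (adjusted p = 0.0182). T1792del and wild-type cells overlapped for Runx2 in both states, with log2 differences of 0.05 ± 0.24 and -0.34 ± 0.25.

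Among 9 tested relatives and partners of RUNX factors, 0 were called higher and 5 lower in naive T1792tg against wild-type cells, and 1 was called higher after 24 h. Leaving out 1 of 4 libraries (the third T1792tg, the fourth T1792tg, the second wild-type or the third wild-type) brought the naive count to 3. Runx1 fell by 0.30 ± 0.08 on the log2 scale in naive T1792tg cells (80.6 against 99.5 CPM, adjusted p = 0.00558), opposite in sign to the Runx2 difference. The 4 others lower were the corepressors Tle1 and Tle3, Cbfa2t2, and Zbtb7b, the factor of CD4 commitment. Runx3, which was named after its value was seen, was the 1 higher at 24 h (72.1 against 45.2 CPM, 0.67 ± 0.11, adjusted p = 0.000104).

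The letters TGTGGT or their reverse complement ACCACA, which RUNX proteins recognise, were searched on both strands from 250 bases before to 50 after the RefSeq start. They were found for Adgrg5, Runx2 and Cxcr3, 3 of the 8 genes with a promoter in the RefSeq table, and in 16.8% of all 32851 promoters. The stretch before the start is shown for those genes, with the letters in capitals (GRCm38.p6, strand of the gene).
Adgrg5, chr8:94923562-94923587, plus strand: agagagtgctACCACAaaagaagtga
Runx2, chr17:44814692-44814717, minus strand: gaggtcacaaACCACAtgattctgtc
Cxcr3, chrX:101734242-101734267, minus strand: tattcacctgACCACAggcgtggcag
The T-box letters GGTGTGA or TCACACC were in the windows of 0 of the 8 genes and in 3.98% of all promoters. Such matches describe the letters and say nothing of binding.

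Adgrg5 (Entrez gene 382045, chromosome 8, 94921811 to 94943293) encodes an adhesion G protein-coupled receptor of blood cells. Its naive difference with the transgene was the widest of the 9 genes. Naive wild-type libraries held 5.53, 10.3, 8.07 and 5.29 CPM, T1792tg libraries 54.9, 90.7, 105.5 and 93.6, and rescue libraries 50.6, 66.9 and 79.9. That was 11.7-fold higher in T1792tg than in wild-type (log2 fold change 3.55 ± 0.22) and 9.64-fold higher in rescue than in CD28-/- (3.27 ± 0.23). The libraries of T1792tg and rescue overlapped each other and lay far above all others.

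Adgrg5 was lower in naive cells with the cluster deleted. The 4 naive T1792del libraries held 1.81, 2.38, 4.83 and 4.17 CPM, each below the lowest wild-type value of 5.29, a log2 fold change of -1.16 ± 0.24 (edgeR, adjusted p = 0.00253). A fit on the compared libraries alone gave -1.14 with an adjusted p of 0.0597. Adgrg5 was lower after stimulation in each genotype without the transgene, with log2 responses of -4.17 ± 0.32 in wild-type, -3.98 ± 0.32 in CD28-/- and -2.84 ± 0.34 in T1792del (adjusted p of 3.50e-14, 1.76e-13 and 2.22e-09). After 24 h wild-type libraries held 0.321 to 0.490 CPM, T1792del 0.295 to 0.639, T1792tg 1.46 to 1.955 and rescue 1.74 to 2.04, so the transgene libraries stayed above the others at a low level.

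Of 14 other adhesion G protein-coupled receptors tested, 1 was called higher and 2 lower in naive T1792tg cells. Adgrd1 was the 1 higher, at 3.02 against 1.52 CPM (0.99 ± 0.30, adjusted p = 0.0166), and it was lower in naive T1792del cells (0.616 CPM, -1.30 ± 0.34, adjusted p = 0.0207). It was named after its values were seen. Without the fourth T1792tg library 1 of the 14 was called, lower. Adgre5, the receptor CD97, fell by 0.32 ± 0.07 in naive T1792tg cells (437 against 547 CPM, adjusted p = 0.00125), as did Adgrl1, by 0.25.

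Cxcr3 (Entrez gene 12766, chromosome X, 101731535 to 101734147) encodes the receptor for interferon-induced chemokines and guides effector T cells into inflamed tissue. Naive wild-type libraries held 2.60, 2.10, 2.55 and 2.44 CPM, and T1792tg libraries 2.94, 6.78, 7.25 and 8.37. The first T1792tg library was close to wild-type and the other three well above it. Naive rescue libraries, at 2.10, 4.74 and 4.29 CPM, overlapped CD28-/- libraries at 1.74 to 2.88 CPM (0.84 ± 0.31). At 24 h wild-type held 2.09, 2.72, 2.15 and 1.72 CPM, T1792tg 8.45, 8.13, 9.94 and 10.6, and rescue 5.10, 8.13 and 6.07. T1792tg did not overlap wild-type and rescue did not overlap CD28-/- at 24 h, while T1792tg and rescue overlapped each other. The log2 fold change was 2.09 ± 0.28 for T1792tg against wild-type and 1.31 ± 0.29 for rescue against CD28-/-.

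T1792del cells held less Cxcr3 than wild-type after 24 h. Their libraries were at 0.739, 1.49, 1.19 and 0.935 CPM, each below the lowest wild-type library (log2 fold change -0.99 ± 0.31, adjusted p = 0.0259). The call was lost without the first or the fourth T1792del library (-0.85, adjusted p = 0.101, and -0.93, adjusted p = 0.0580) or without the second wild-type library (-0.86, adjusted p = 0.0887). Wild-type and CD28-/- cells were not called for a response to stimulation (-0.15 ± 0.29 and 0.32 ± 0.29). Of 17 other chemokine receptors, 3 were higher and 0 lower in naive T1792tg cells. Among them were Ccr9 (28.6 against 13.2 CPM, 1.12 ± 0.16, adjusted p = 2.47e-06) and Cxcr5 (24.1 against 11.5 CPM, 1.06 ± 0.25, adjusted p = 0.00185). Without the fourth T1792tg library 5 were called, and with a term for sex 6. Naive B cell marker sums were 400.0 to 654 CPM in T1792tg and 222 to 452 in wild-type, with 0 of 12 markers called. The part of B cells in the Cxcr5 difference was not tested.

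Cd44 (Entrez gene 12505, chromosome 2, 102811141 to 102901669) had overlapping levels in naive cells. The 19 naive libraries lay between 34.6 and 46.3 CPM, and each genotype overlapped its neighbour in the order of means. After 24 h, wild-type libraries held 85.2, 102, 124 and 100 CPM and T1792tg libraries 255, 266, 267 and 269. CD28-/- libraries held 54.3, 50.1, 45.5 and 42.1 CPM, and rescue libraries 99.0, 173 and 116. T1792tg thus lay above all, and rescue overlapped wild-type.

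The Cd44 response was smaller in CD28-/- than in wild-type cells and was not called different in T1792del cells. Levels rose by 1.45 ± 0.12 on the log2 scale in wild-type, 1.28 ± 0.12 in T1792del and 0.36 ± 0.12 in CD28-/- cells (adjusted p of 5.36e-13, 1.43e-11 and 0.00973). The CD28-/- response was 1.10 ± 0.18 below that of wild-type, or -1.10 as a difference (adjusted p = 4.87e-06), while that of T1792del differed by -0.17 ± 0.17 (adjusted p = 0.597). In T1792tg cells the response was 2.77 ± 0.13 and in rescue cells 1.83 ± 0.15. Of 15 tested genes for CD44 ligands, splicing factors and membrane linkers, 1 was higher and 2 lower in naive T1792tg cells. The hyaluronidase Hyal2 was the 1 higher (0.73 ± 0.16, adjusted p = 0.00115), and among the lower was the linker Ezr (-0.47 ± 0.05, adjusted p = 7.93e-09).

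Crtam (Entrez gene 54698, chromosome 9, 40972798 to 41004628) encodes an adhesion receptor that marks activated T cells with cytotoxic features. Its highest levels were in stimulated cells without CD28, with or without the transgene. After 24 h CD28-/- libraries held 84.2, 88.6, 80.1 and 82.1 CPM and rescue libraries 85.1, 108 and 84.8, against 12.2 to 16.1 (median 13.8) in wild-type. CD28-/- and rescue overlapped each other and lay far above wild-type. The difference between CD28-/- and wild-type was 5.99-fold (log2 fold change 2.58 ± 0.12, adjusted p = 2.04e-18). T1792tg libraries, at 25.3, 19.3, 28.2 and 30.1 CPM, lay between.

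The Crtam difference from wild-type was wider after culture than before it. Crtam rose by 2.58 ± 0.12 on the log2 scale in CD28-/- cells and by 0.41 ± 0.12 in wild-type cells (adjusted p = 0.00231), and the test of the difference gave 2.17 ± 0.17 (adjusted p = 4.62e-12). Naive CD28-/- libraries held 12.6 to 15.8 CPM against 9.12 to 12.6 in wild-type (0.42 ± 0.12, adjusted p = 0.0203). That naive call was lost without the fourth CD28-/- library (0.35, adjusted p = 0.0847), the first wild-type library (0.37, adjusted p = 0.0648) or the third wild-type library (0.35, adjusted p = 0.0803). T1792del cells held less Crtam than wild-type in both states: 6.30, 6.55, 7.12 and 6.91 CPM in naive cells (-0.64 ± 0.13, adjusted p = 0.00208) and 9.97, 9.16, 11.3 and 9.84 at 24 h (-0.47 ± 0.12, adjusted p = 0.00634). Neither group overlapped wild-type. Crtam, Cxcr3, Eomes and Plaur were thus the members called lower in 24 h T1792del cells and higher without overlap in 24 h T1792tg cells.

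Among 11 other genes of CRTAM ligands, related receptors and polarity partners, 2 were higher and 3 lower in naive T1792tg cells. Cd226 (77.8 against 50.3 CPM, 0.63 ± 0.14, adjusted p = 0.000804) and Cd96 (300.4 against 231.6 CPM, 0.38 ± 0.08, adjusted p = 0.00135), receptors of nectin-family ligands, were the 2 higher. Prkcz, Scrib and Pvr were the 3 lower.

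Plaur (Entrez gene 18793, chromosome 7, 24460937 to 24475970) encodes the urokinase receptor, which holds a plasminogen activator at the cell surface. It had the highest level per length of the set in naive wild-type cells, 25.9 CPM per kilobase. Naive libraries ran from 24.9 to 58.5 CPM, and each genotype overlapped its neighbour in the order of means. Plaur was lower after stimulation in each genotype, and the 24 h levels differed between genotypes. Wild-type libraries held 5.83, 7.64, 5.93 and 5.57 CPM after 24 h, T1792tg libraries 17.8, 20.6, 16.7 and 17.8, and T1792del libraries 1.29, 3.34, 3.18 and 2.92. CD28-/- libraries fell furthest, to 1.09, 1.55, 1.004 and 1.62 CPM, and rescue libraries were at 4.92, 6.94 and 5.59. Rescue overlapped wild-type, T1792tg lay above both, and CD28-/- and T1792del lay below.

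The log2 response of Plaur was -2.74 ± 0.19 in wild-type, -3.93 ± 0.20 in T1792del and -4.96 ± 0.23 in CD28-/- cells, each called. The response differed from wild-type by -1.19 ± 0.27 in T1792del (adjusted p = 0.00680) and by -2.22 ± 0.29 in CD28-/- cells (adjusted p = 1.91e-07). At 24 h the difference from wild-type was -1.22 ± 0.21 for T1792del (adjusted p = 0.000111) and -2.24 ± 0.24 for CD28-/- (adjusted p = 1.11e-09). With the transgene the 24 h difference was 1.54 ± 0.19 over wild-type and 2.13 ± 0.25 over CD28-/-. Of 13 tested genes of the urokinase and plasminogen system, 3 were higher and 1 lower in T1792tg against wild-type at 24 h. Serpine2, an inhibitor of urokinase and thrombin, was higher in T1792tg (34.2 against 18.0 CPM, 0.93 ± 0.17, adjusted p = 0.000263) and lower in T1792del (7.98 CPM, -1.17 ± 0.18, adjusted p = 1.2e-05). The integrin subunit Itgav and the receptor Igf2r were the other two higher (0.60 and 0.40), and Plgrkt was the 1 lower (-0.44). They were named after their values were seen.

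Myo10 (Entrez gene 17909, chromosome 15, 25622550 to 25813673) encodes an unconventional myosin that moves to the tips of filopodia. Its naive levels were highest with the cluster deleted and lowest with the transgene. T1792del libraries held 68.8, 65.2, 66.2 and 74.7 CPM, wild-type 51.3, 54.0, 53.7 and 43.6, rescue 31.6, 21.8 and 34.3, and T1792tg 18.0, 19.1, 11.4 and 18.1. None of these 4 groups overlapped another, and CD28-/- (44.6 to 60.3 CPM) overlapped wild-type only. The log2 fold change was -1.61 ± 0.13 for T1792tg against wild-type and -0.89 ± 0.14 for rescue against CD28-/-. Naive T1792del cells held more than wild-type (0.44 ± 0.12, adjusted p = 0.0292), a call lost without the first, the third or the fourth T1792del library or the fourth wild-type library (0.37 to 0.46, adjusted p of 0.0519 to 0.112).

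After 24 h the Myo10 levels of all genotypes lay between 17.4 and 27.6 CPM. The fall was 1.46 ± 0.13 on the log2 scale in wild-type, 1.44 ± 0.13 in CD28-/- and 1.45 ± 0.13 in T1792del cells, each called. Naive and 24 h libraries of T1792tg overlapped, with a response of 0.36 ± 0.13. T1792del kept a higher level at 24 h, 27.6, 23.0, 26.6 and 23.3 against 17.4 to 19.1 CPM in wild-type (0.45 ± 0.13, adjusted p = 0.0151, and 0.40 with an adjusted p of 0.0589 without the first T1792del library). Of 21 other unconventional myosins and filopodia genes, 1 was higher and 4 lower in naive T1792tg cells, with log2 fold changes from -0.33 to 0.43: Myo1c higher, and Myo19, Myo1g, Myo9b and Vasp lower. Without the third or the fourth T1792tg library, or without the second wild-type library, 3 were called.

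Ahnak (Entrez gene 66395, chromosome 19, 8989284 to 9076935) encodes a very large scaffold protein linked to calcium channels and the membrane skeleton. After 24 h, Ahnak was higher than in wild-type both with the cluster deleted and with the transgene. Naive wild-type libraries held 153, 134, 182 and 188 CPM, T1792del 263, 306, 255 and 282, T1792tg 205, 193, 187 and 254, and rescue 265, 251 and 302. T1792del and rescue lay above all wild-type libraries, while T1792tg overlapped wild-type by 1 library. After 24 h wild-type was the lowest group, at 10.01, 15.1, 14.98 and 12.3 CPM, against 23.7, 48.4, 26.2 and 22.9 in T1792del, a lowest of 24.0 and a median of 30.7 in T1792tg and 63.0, 51.8, 57.9 and 59.7 in CD28-/-. No group overlapped wild-type at 24 h.

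Against wild-type, Ahnak was higher in T1792del in naive (0.75 ± 0.17, adjusted p = 0.00512) and 24 h cells (1.21 ± 0.19, adjusted p = 1.79e-05), and in CD28-/- at 24 h (2.15 ± 0.19, adjusted p = 1.05e-11). Its log2 response was -3.65 ± 0.19 in wild-type, -3.19 ± 0.18 in T1792del and -1.85 ± 0.17 in CD28-/-, each called. The CD28-/- response differed from wild-type by 1.80 ± 0.25 (adjusted p = 4.0e-07), that of T1792del by 0.46 ± 0.25 (adjusted p = 0.270). Rescue cells at 24 h, with 50.6, 37.8 and 42.0 CPM, lay below all CD28-/- libraries and above all wild-type libraries. Naive T1792del libraries also held more myeloid marker RNA: the sum over 15 markers was 297 to 417 CPM against 197 to 261 in wild-type, 5 of 15 were called higher (among them Csf1r, 59.4 against 21.5 CPM) and 0 lower. Their NK and CD8 marker sums were also higher, 135 to 198 CPM against 113 to 119, with 3 of 16 called higher. The part of those cells in the naive T1792del values of Ahnak, Crtam, Adgrg5 and Myo10 was not tested. At 24 h the myeloid sums overlapped, at 36.1 to 48.3 CPM in T1792del and 42.2 to 51.2 in wild-type, as did the NK and CD8 sums. Regulatory T cell markers did not overlap at 24 h, with sums of 804 to 905 CPM in T1792del and 1075 to 1111 in wild-type. Of these 10 markers, 0 were called higher and 3 lower, and their median log2 fold change was 0.01. Foxp3 averaged 9.36 ± 1.57 CPM in 24 h T1792del and 9.42 ± 0.880 in 24 h wild-type cells. The part of such cells in the 24 h T1792del values of the members was not tested.

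Of 17 tested partners of AHNAK, calcium channel subunits and skeletal linkers, 1 was higher and 5 lower in naive T1792tg cells. Cacnb3, a calcium channel β subunit, was the 1 higher (10.7 against 6.71 CPM, 0.67 ± 0.17, adjusted p = 0.00426) and was higher at 24 h too (9.16 against 3.95 CPM, 1.21 ± 0.18, adjusted p = 1.0e-05). Filamin A (Flna) fell by 0.57 ± 0.11 in naive T1792tg cells (1358 against 2013 CPM, adjusted p = 0.000382), with Dst, Myh9, Plec and Itpr1.

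**Figure D2:**
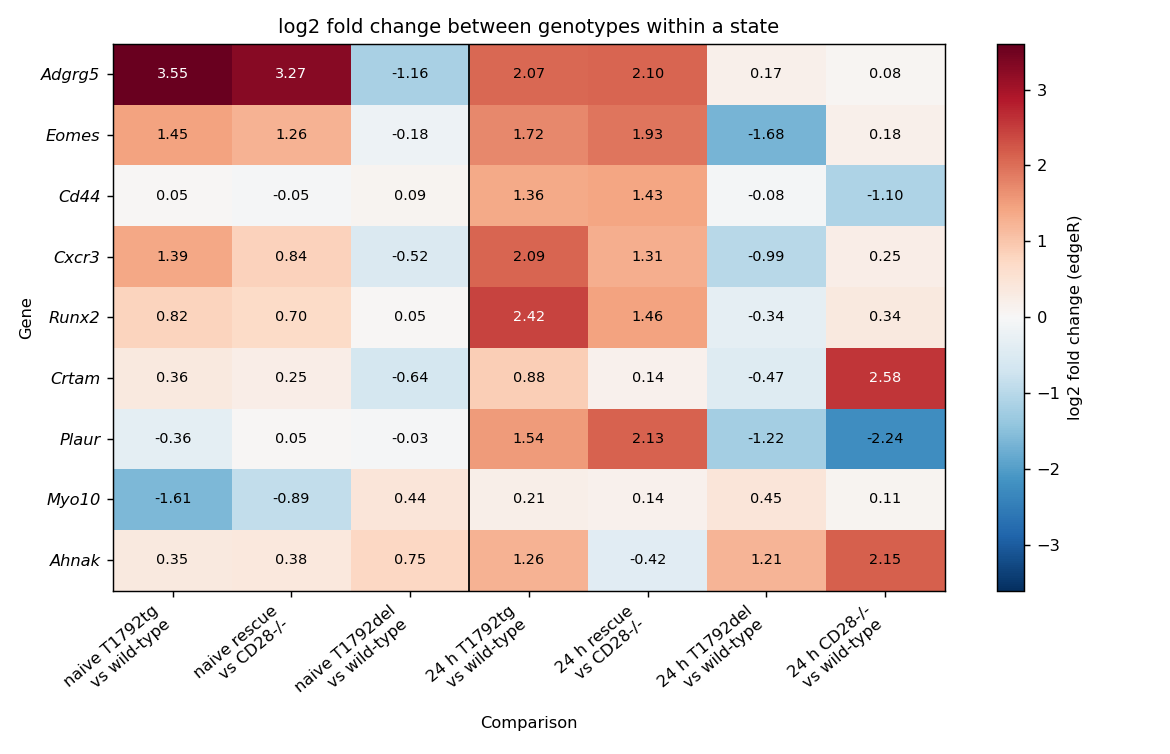
log2 fold change of each gene (row) in 7 comparisons between genotypes (columns; naive at the left of the line, 24 h at the right); red is higher and blue lower in the first named genotype. Eomes, Cxcr3 and Plaur at 24 h are positive in both transgene columns and negative in the T1792del column. Cd44, Runx2 and Crtam have the same signs, with smaller T1792del values (-0.08, -0.34 and -0.47). Ahnak at 24 h is positive for T1792tg (1.26), T1792del (1.21) and CD28-/- (2.15).

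Set side by side in the genotypes without the transgene, the 9 genes moved in several directions. The wild-type response called 2 of them higher (Cd44, Crtam) and 5 lower, where 41.3% and 43.9% of all tested genes were called. In CD28-/- cells 2 rose and 4 fell (39.7% and 41.2% of tested genes), and in T1792del cells 2 rose and 6 fell (41.4% and 43.7%).

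For T1792del against wild-type, 2 genes were higher (Myo10, Ahnak) and 2 lower (Adgrg5, Crtam) in naive cells, beside 2.76% and 2.42% of all tested genes. After 24 h 2 were higher (Myo10, Ahnak) and 4 lower (Eomes, Cxcr3, Crtam, Plaur), beside 7.77% and 8.47%. For CD28-/- against wild-type, 1 gene was higher (Crtam) and 0 lower in naive cells (7.42% and 7.34% of tested genes), and 2 were higher (Crtam, Ahnak) and 2 lower (Cd44, Plaur) after 24 h (23.7% and 27.8%). Markers of other cells also differed between CD28-/- and wild-type libraries. Of 10 regulatory T cell markers, 6 were called lower and 1 higher in naive cells and 6 lower and 3 higher at 24 h. Foxp3, the defining factor of regulatory T cells, was at 4.63 ± 0.832 CPM in naive CD28-/- and 21.7 ± 1.64 in naive wild-type cells. At 24 h 5 of 16 NK and CD8 markers were lower and 1 higher, and 4 of 12 B cell markers were higher and 0 lower. Of all tested genes 23.7% were called higher and 27.8% lower there, so nothing is read from the NK, CD8 and B cell counts. Of 12 genes of RNA stress and dissociation, 8 were lower and 0 higher in naive CD28-/- cells. The part of these differences in the CD28-/- values of the members was not tested. The response differed from that of wild-type for 0 higher and 2 lower genes in T1792del cells (3.15% and 2.95%), and for 3 higher and 2 lower in CD28-/- cells (20.8% and 22.4%). The wild-type and CD28-/- libraries of these tests are the same that served in the contrasts by which the genes were chosen, so the comparisons share them.

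**Figure D3:**
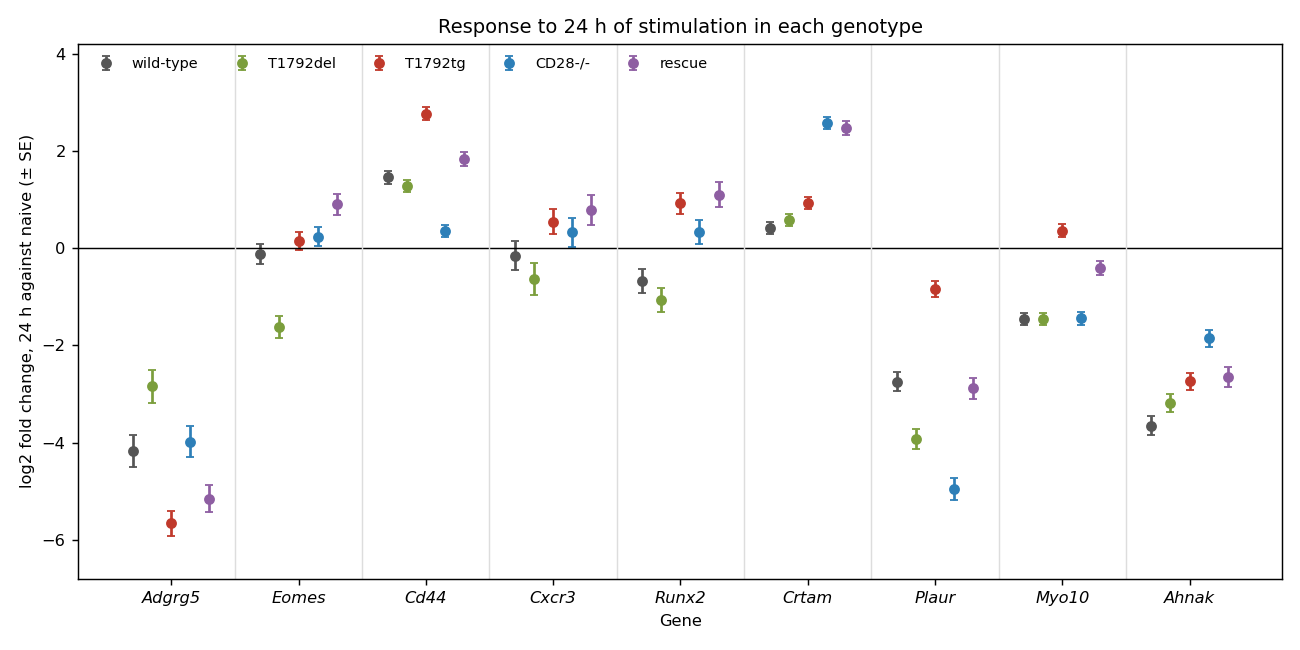
Response of each gene to stimulation, as the log2 fold change of 24 h against naive cells with its standard error, in the 5 genotypes. Crtam stands apart in CD28-/- (2.58) and rescue (2.47), Plaur falls least in T1792tg (-0.84) and most in CD28-/- (-4.96), and Myo10 is at 0.36 in T1792tg and -0.41 in rescue.

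Rescue and T1792tg cells carry the same transgene and differ in CD28, among other things. In naive cells Runx2 was lower in rescue than in T1792tg without overlap (-0.79 ± 0.25), and Myo10 was higher (0.81 ± 0.14). Plaur was higher by 0.39 ± 0.18, but its lowest rescue and highest T1792tg libraries were both at 38.68 CPM. After 24 h Cd44 and Plaur were lower in rescue (-1.03 ± 0.13 and -1.65 ± 0.21), and Eomes and Crtam higher (0.39 ± 0.19 and 1.85 ± 0.12). Adgrg5 overlapped in both states. Foxp3 averaged 5.65 ± 0.352 CPM in naive rescue and 27.3 ± 4.38 in naive T1792tg cells. The 12 genes of RNA stress and dissociation summed to 4382 to 5293 CPM in naive rescue and 7107 to 11680 in naive T1792tg libraries. The part of these differences in the values of the members was not tested. All rescue mice and 1 of 4 T1792tg mice were female, and with a term for sex the Plaur values were 0.16 in naive and -1.89 in 24 h cells. Of wild-type mice 3 of 4 were female, of T1792del 2 of 4 and of CD28-/- 4 of 4. The comparisons with wild-type were thus not balanced for sex either. In the comparisons with a test, the sex term changed no call of a member.

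Other effector genes of the type 1 and cytotoxic program were 26 in all, and every one was tested. In T1792tg against wild-type 12 were higher and 3 lower in naive cells (median log2 fold change 0.56, against 0.01 over all tested genes), where 10.5% and 12.6% of all tested genes were called. At 24 h 15 were higher and 0 lower (median 0.54 against -0.01), beside 6.1% and 6.45%. For rescue against CD28-/- 4 were higher and 3 lower in naive cells, beside 7.84% and 8.92%, and 15 higher and 2 lower at 24 h, beside 9.52% and 8.86%. The list was drawn up with earlier results of these libraries known and is no independent evidence of direction. Granzyme B (Gzmb) was at 7.74 against 3.41 CPM in naive T1792tg and wild-type cells (1.19 ± 0.31, adjusted p = 0.00519) and 130.4 against 55.6 at 24 h (1.23 ± 0.24, adjusted p = 0.000608). Bhlhe40, a regulator of cytokine production, was higher in naive T1792tg cells (76.6 against 40.9 CPM, 0.90 ± 0.15). Fasl, the death ligand, and Prdm1, the factor BLIMP-1 of terminal effectors, went the other way in naive cells (-1.40 ± 0.14 and -0.91 ± 0.18, adjusted p of 7.77e-09 and 0.000429).

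At 24 h the interferon gene Ifng, named after its value was seen, was at 65.5 CPM in T1792tg, 12.1 in wild-type and 2.48 in T1792del cells (2.43 ± 0.35 and -2.28 ± 0.39 against wild-type). Tbx21, which encodes the T-box relative T-bet, was at 172 ± 21.2 CPM in T1792tg, 117 ± 18.3 in wild-type, 25.0 ± 8.40 in T1792del, 85.2 ± 30.6 in rescue and 7.46 ± 1.85 in CD28-/- cells at 24 h. The T1792tg difference did not pass the test, while T1792del was lower than wild-type (-2.22 ± 0.23, adjusted p = 1.95e-08) and rescue higher than CD28-/- (3.52 ± 0.26, adjusted p = 1.02e-11). Eomes and Tbx21 thus differed in CD28-/- cells, where the first was at 8.84 ± 1.06 CPM, close to wild-type at 7.79 ± 2.04.

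**Figure D4:**
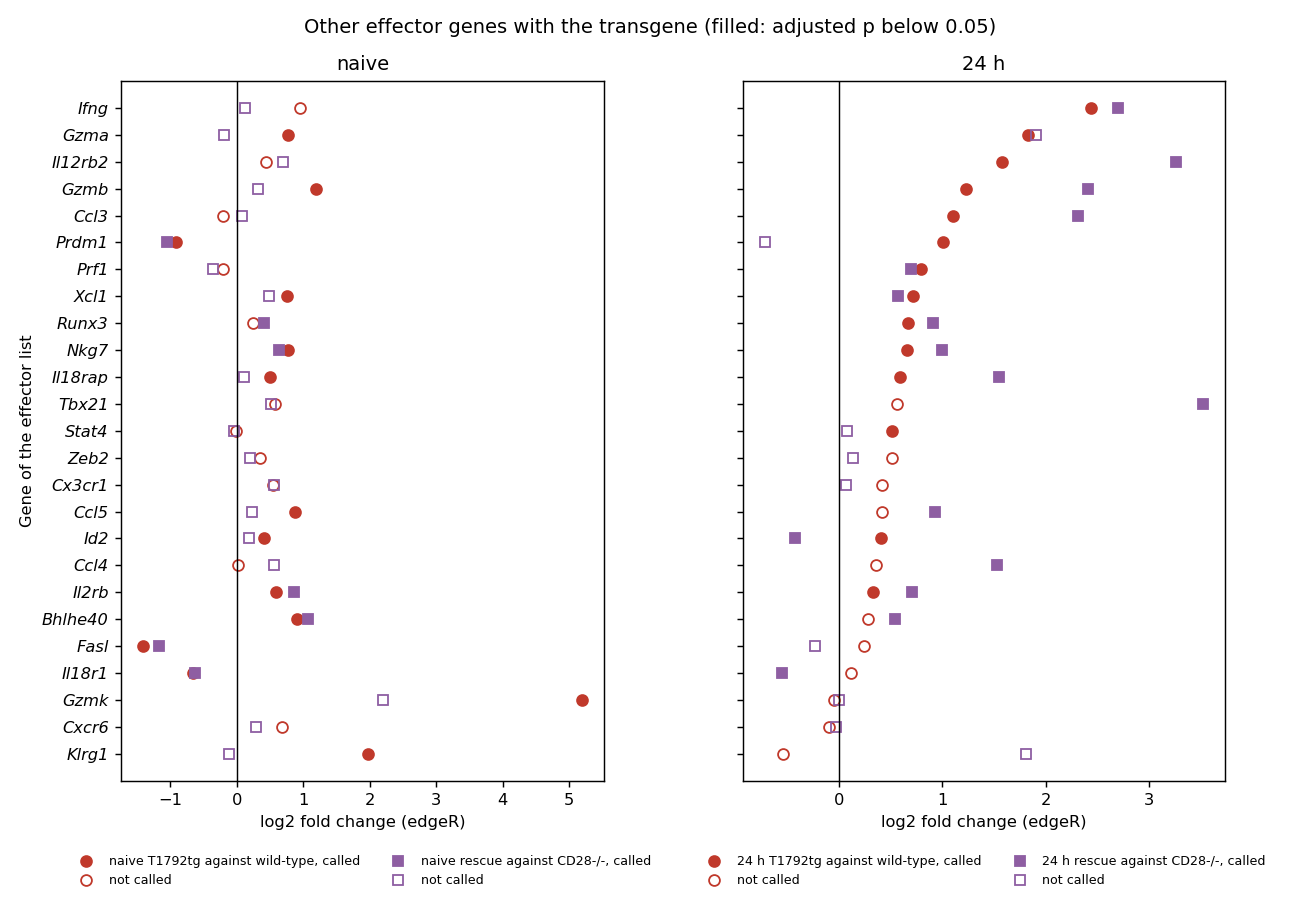
log2 fold change of 25 of the 26 other effector genes with the transgene, in naive cells (left) and after 24 h (right); circles are T1792tg against wild-type, squares rescue against CD28-/-, and filled symbols have an adjusted p below 0.05. At 24 h 14 filled circles lie right of 0 and 0 left of it; Fasl and Prdm1 lie left of 0 in naive cells.

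Of 26 genes of the memory and antigen-experienced phenotype, 8 were higher and 3 lower in naive T1792tg against wild-type cells and 6 higher and 2 lower at 24 h, beside the shares of 10.5% and 12.6%, and of 6.1% and 6.45%, of all tested genes. Ly6c2, a surface marker of memory CD8 and some CD4 cells, was higher with the transgene in naive cells (57.6 against 23.7 CPM, 1.28 ± 0.16, adjusted p = 3.62e-07), as was the calcium-binding S100a6 (13.1 against 7.21 CPM, 0.86 ± 0.25, adjusted p = 0.0114). Il7r, the IL-7 receptor that supports memory survival, was lower (272 against 470 CPM, -0.79 ± 0.17, adjusted p = 0.000824), and so was the costimulator Icos (102 against 177 CPM, -0.79 ± 0.13). Of 16 genes of naive T cell identity 1 was higher and 6 lower in naive T1792tg cells. Lef1 fell from 612 to 394 CPM (-0.63 ± 0.07, adjusted p = 1.2e-07) and S1pr1 from 1262 to 770 (-0.71 ± 0.16, adjusted p = 0.00159). Ccr9 was the 1 higher.

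Of 25 genes described elsewhere as targets of the cluster, 0 were higher and 8 lower in naive T1792tg cells, beside 10.5% and 12.6% of all tested genes. At 24 h 2 were higher and 3 lower, beside 6.1% and 6.45%. Naive CD28-/- cells, which lack the transgene, had 0 higher and 7 lower against wild-type, beside 7.42% and 7.34%. In naive T1792del cells 2 were higher and 1 lower, beside 2.76% and 2.42%. Rcan3, a calcineurin regulator, was at 39.8 CPM in naive T1792tg, 73.1 in wild-type and 102 in T1792del cells (-0.88 ± 0.08 and 0.48 ± 0.08 against wild-type, adjusted p of 3.40e-10 and 8.65e-05). Among the 9 genes, Myo10 had this order of means in naive cells, but its T1792tg level was part of the choice of genes. Its naive T1792del call was lost when certain single libraries were left out, as given above. At 24 h Myo10 averaged 21.3 CPM in T1792tg and 18.4 in wild-type cells, which is not that order. Whether Myo10 is a target was not tested.

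Likeness was taken over the 10 group means, each state centred on its own mean, among 10144 genes. Adgrg5 was closest to Abhd15 (Pearson r = 0.98) and the Mir17 row (0.97). Adgrg5 was chosen by its values with the transgene, so its likeness to this row follows from the choice and is no support. The Mir17 row averaged 6.55 and 6.88 CPM in naive T1792tg and rescue cells and at most 0.624 in any other group. Eomes was closest to Mgat1 (0.98), H2-D1 (0.98) and Gbp3 (0.97), Plaur to Nab1 (0.99) and Batf3 (0.98), and Crtam to Tmem120b (0.98) and Lims1 (0.98). Cxcr3 was closest to Gpatch2 (0.97), Runx2 to Sema7a (0.95), Cd44 to Pcgf3 (0.96), Myo10 to Nr1d2 (0.97) and Ahnak to Serinc5 (0.92). Between members the highest values were 0.96 for Eomes with Cxcr3 and 0.95 for Cd44 with Plaur, and the lowest was -0.83 for Adgrg5 with Myo10. These values rest on 10 points that share libraries and describe them only.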

How the data were processed

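Counts per gene of 38 libraries were deposited by the authors as 1 table of raw whole-number counts. The submitters' processing notes name STAR 2.5.2a, FastQC 0.11.5, edgeR 3.24.3 in R 3.5, and build mm10. For the counting step, the tool, annotation and strand setting were not given in the sources used here, so reads of overlapping or antisense genes may be mixed. The deposited table's other numeric column, a width in bases that the authors did not explain, was used for CPM per kilobase. Entrez identifiers were matched to symbols for 23968 of 24028 genes; the rest held 0.0749% of counts. Labels name single mice and no batch. No pair of libraries was identical.

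Here, edgeR 4.0.16 (R 4.3.3) was fitted to all libraries with 1 coefficient per group, filterByExpr, TMM scaling and the quasi-likelihood F test, two-sided, with Benjamini-Hochberg adjustment over the 13650 tested genes. A gene was called at an adjusted p below 0.05. Standard errors are the fold change over the square root of F. P-values measure the spread between these mice, and 4 or 3 libraries a group limit what can be called. CPM use the scaled library sizes. The procedure was tested on simulated counts. The 9 genes and all gene lists were chosen with earlier results of these data known. Beside the 9 genes, each list gave up to 4 names, those changed most in naive T1792tg cells among called genes whose higher mean reached 5 CPM, and the likest genes for each member by Pearson r of group means of log2 CPM with a prior count of 2. Some called genes are not reported here. Other genes of lists with 5 or fewer calls were named after their values were seen. Alternatives were DESeq2 1.42.0 and its size factors, other filters, a replicate block, a sex term, fewer libraries and unscaled totals. microRNA and promoter sequences are from RefSeq and 3′ UTRs from GENCODE M21. Crtam had no promoter in the table used.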

Additional observations from a re-analysis of the deposited data

Results flagged for a closer look

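In 4 of 72 groups of 4 libraries, 1 library lay apart from the other three by Dixon's criterion, which chance does in about 1 of 20. The third naive wild-type library was high for Eomes (9.29 CPM). The first naive CD28-/- library was high for Cxcr3 (2.88 CPM). The third naive T1792tg library was low for Myo10 (11.4 CPM). The second 24 h T1792del library was high for Ahnak (48.4 CPM).

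The response to stimulation differed from that of wild-type, by the test of the difference itself, for Eomes (-1.50) and Plaur (-1.19) in T1792del cells. In CD28-/- cells it differed for Cd44 (-1.10), Runx2 (1.01), Crtam (2.17), Plaur (-2.22) and Ahnak (1.80), all on the log2 scale.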

How the results depend on the processing

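No fold change of the 9 genes that was called changed sign under any alternative tried. In the comparisons with a test, 792 refits of a member's fold change with 1 library left out lost a call in 12 and gained one in 3, and 612 refits under the other settings lost one in 2 and gained one in 3; the rest stayed on their side of the threshold, called or not. The count of members called in naive CD28-/- against wild-type cells, 1 in the fit on all libraries, was 2 with DESeq2, 0 with only the compared groups, and 0 to 2 when 1 library was left out; the cause was not tested. The gene lost there was Crtam (adjusted p = 0.0729 in the fit of the compared groups) and the one gained was Runx2 (-0.67, adjusted p = 0.0473 with DESeq2). Replicate numbers were shared between groups without a stated link. Same-numbered naive and 24 h libraries of a genotype correlated in their deviations by 0.03 to 0.34. Of these pairs, 14 of 19 were above 0.1 and 16 of 19 were best with their own number. Sex, read from sex-linked counts, was the same within each such pair. Whether the libraries of a pair came from 1 mouse was not stated, and the main fit took them as unpaired. With a replicate block the count of members called in naive CD28-/- against wild-type cells stayed at 1. The block changed no other call of a member. DESeq2 size factors moved the median log2 response of all genes in wild-type from -0.06 to -0.12. The number of genes called per list moved by over 1.5 times in 102 of 600 fits with 1 library left out and in 59 of 560 other fits, and did not for the 26 effector genes. With only the compared groups, 13 in place of 8 memory genes and 3 in place of 1 RUNX gene were called in 24 h T1792tg cells. Adgrg5 at 24 h and Cxcr3 and Runx2 throughout lie at 0.295 to 12.8 CPM, where counting limits precision.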
